A study of Mus musculus with 38 samples.

Results

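The comparison described here is the response of ribosome footprints to KCl in the input fraction of mouse cortical neurons in which the translation initiation factor eIF4G2 had been knocked down. Its members are the 4 libraries titled KD_in_Rest (2) and KD_in_Dep (2), of 38 libraries in the series. All 4 came from primary cortical neurons of CD-1 mouse embryos that carried the PSD95-TurboID lentivirus, a doxycycline-inducible biotin ligase joined to the postsynaptic scaffold PSD95, and that had received 20 nM siRNA targeting eIF4G2 for 72 h. The KD_in_Dep neurons were kept for 2 h with tetrodotoxin and DL-AP5, which block sodium channels and NMDA receptors. They then received 55 mM KCl for 1 h and rested for 30 min in medium with biotin. By the study's methods, that medium again held tetrodotoxin and DL-AP5. The KD_in_Rest neurons received no KCl. Cycloheximide, which stops elongating ribosomes of the cytosol, was given for 2 min before biotin in all of them. The input is the part of the monosome fraction taken before the streptavidin pulldown, so that it reports on the whole culture rather than on the labelled dendrites. The labels describe it as a cytosol region. Inputs that received a non-targeting siRNA were not analysed here. Where a comparison outside the knockdown was needed, it was made with the 6 PSD95-TurboID inputs that had received no siRNA (3 resting, 3 KCl-depolarized, with the same KCl and biotin times), which belong to another experiment of the series.

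Depolarization opens voltage-gated calcium channels, and calcium-activated kinases then phosphorylate transcription factors such as CREB and SRF that are already present. Within the hour these switch on the immediate early genes, whose products are transcription factors themselves (the Fos, Jun, Egr and Nr4a families) or act at synapses (Arc, the neuronal pentraxins). eIF4G2, also called DAP5, is a relative of the scaffold eIF4G1 that lacks the site for the cap-binding protein and has been linked to initiation that depends less on the cap and to initiation downstream of upstream open reading frames. A footprint is the stretch of mRNA covered by a ribosome, so that footprint counts over a coding sequence (CDS) follow both how much mRNA is there and how well it is translated. The 2 cannot be separated here, because no RNA-seq of these cultures was analysed. In the same way, fewer cells of a type and fewer footprints per cell of that type cannot be told apart in bulk libraries.

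The footprint libraries held 13257998 and 19362606 counted reads at rest and 8791836 and 5906281 after KCl, of which 6464209, 7856257, 3857127 and 2292934 fell in the CDS of the longest transcript of a gene. The depolarized libraries were thus the shallower ones. Levels (CPM) are counts per 1000000 CDS counts of the genes kept by the filter, scaled by the TMM factors of the 10 PSD95-TurboID inputs. They were not adjusted for length, and each test used the TMM factors of its own fit. Eif4g2 itself, the targeted gene, was at 285.1 and 285.2 CPM in the resting and at 337 and 326 CPM in the depolarized knockdown inputs, against 535 to 759 CPM in the 6 inputs without siRNA. The ranges did not overlap, and the knockdown inputs were lower by 0.96 on the log2 scale (SE 0.113, FDR = 1.66e-05), in the direction of the labels. That comparison also spans the 2 experiments: 3296 of 12886 genes tested (25.6%) differed between knockdown inputs and inputs without siRNA, so that knockdown and experiment cannot be told apart in it. Within the knockdown, Eif4g2 did not pass the test for a response to KCl (0.23, FDR = 0.155), though it did with the 4 knockdown inputs alone (0.23, FDR = 0.0209) and with a trend of the fold changes over CDS length removed (0.39, FDR = 0.0186). Of its relatives, Eif4g1 was at 629.8 and 646 CPM at rest and 753 and 764 CPM after KCl (log2 0.27, FDR = 0.0307), a call that was lost without any single knockdown input (FDR between 0.136 and 0.264), and Eif4g3 was at 266 and 285 and then 267 and 277 CPM (FDR = 0.993).

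KCl changed the CDS footprints of 2353 of 12223 genes tested (19.3%) at an FDR under 0.05 in edgeR's quasi-likelihood test, 1089 upward (8.91%) and 1264 downward (10.3%). The median log2 fold change over all tested genes was 0.02. The 8 genes with the smallest p among the risen were Fos, Nr4a1, Fosb, Egr1, Junb, Rsrp1, Egr2 and Nr4a2. They rose between 5.76-fold and 21.6-fold, and 7 of these 8 encode immediate early transcription factors. Among the fallen genes the 8 with the smallest p were Adgrl1, Tubb5, Cacna2d1, Tubb3, Apba1, Pcdh20, Nwd2 and Tubb2a, which fell between 1.86-fold and 5.48-fold, and 3 of these 8 encode tubulins. Any single knockdown input mattered for how many genes passed: 1185 without KD_in_Rest 1, 1178 without KD_in_Rest 2, 1340 without KD_in_Dep 1 and 1356 without KD_in_Dep 2. For every gene that is named with values and passed the test, both depolarized libraries lay on the same side of both resting ones.

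**Figure D1:**
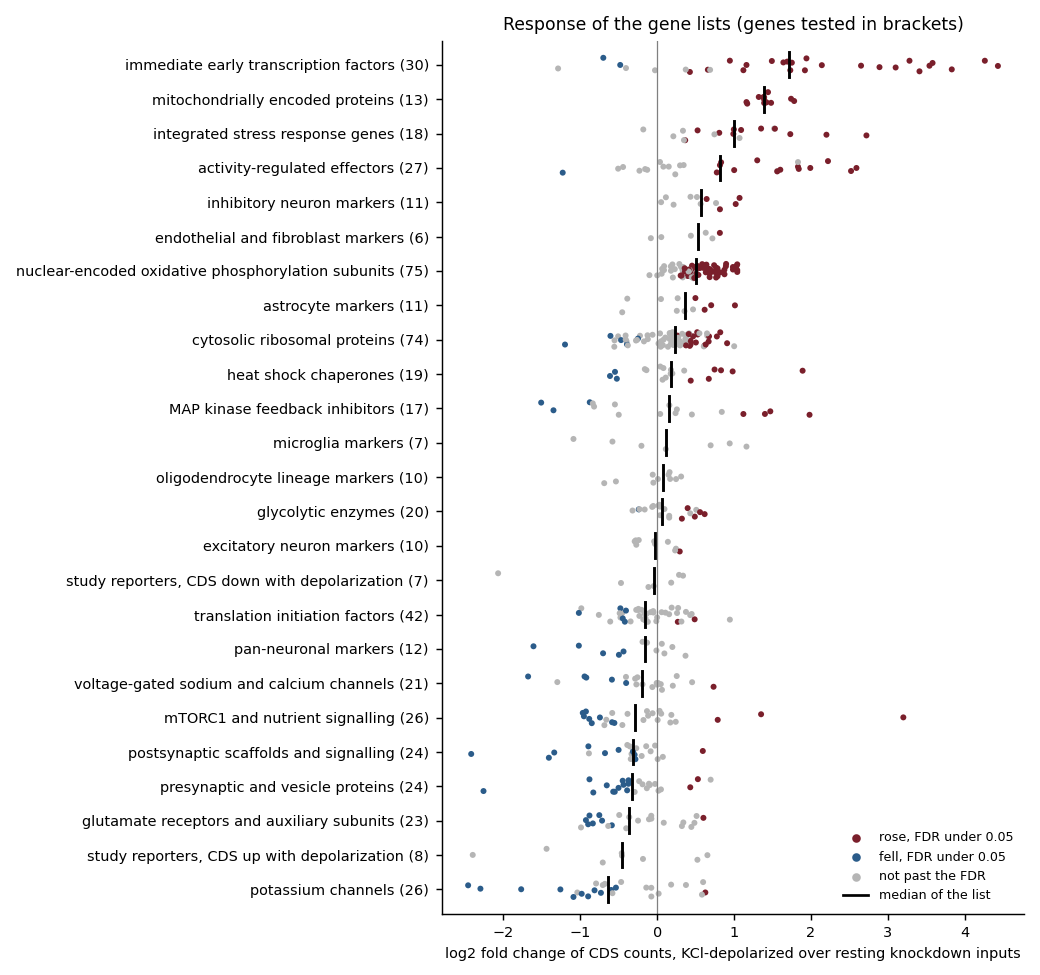
Log2 fold change (x axis) of CDS counts in KCl-depolarized over resting eIF4G2 knockdown inputs for the tested members of 25 gene lists (y axis); each point is 1 gene, coloured by its call at an FDR of 0.05, and black bars are the list medians. Immediate early transcription factors lie highest, with a median of 1.71, mitochondrially encoded proteins form a tight group with a median of 1.39, and potassium channels lie lowest with a median of -0.64.

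Most immediate early transcription factors rose. Of 31 genes on the list, 30 were tested, 23 rose, 2 fell and 5 did not pass, with a median log2 fold change of 1.71. Of all genes tested 8.91% rose and 10.3% fell, with a median of 0.02. Between 20 and 22 of them rose when any 1 knockdown input was left out. Fos, the partner of Jun proteins in AP-1, was at 175 and 177 CPM in the resting inputs and at 1829 and 1875 CPM in the depolarized ones, a rise of 10.7-fold (log2 3.41, SE 0.0855, FDR = 5.74e-20). Its CDS lies at chr12:85474040-85476458 on the plus strand (mm10). Fosb, which can replace Fos in AP-1, went from 24.5 and 25.3 to 512 and 556 CPM, the largest fold change among the genes named by rank (21.6-fold, FDR = 2.29e-18). Junb, a Jun protein, went from 48.8 and 54.2 to 708 and 747 CPM (14.2-fold, FDR = 2.66e-17). In each of these 3 AP-1 genes the replicates of a group lay close together and the groups were many times apart.

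The zinc finger factor Egr1 was at 122 and 126 CPM at rest and 1046 and 1057 CPM after KCl (8.59-fold, FDR = 3.23e-18). Egr2 started lower, at 8.07 and 9.21 CPM, and reached 169 and 161 CPM (19.2-fold, FDR = 2.02e-14). Of the orphan nuclear receptors, Nr4a1 went from 70.2 and 76.7 to 862 and 882 CPM (11.99-fold) and Nr4a2 from 28.1 and 26.2 to 271 and 249 CPM (9.70-fold, FDR = 9.95e-14). The third, Nr4a3, went from 214 and 199.7 to 548 and 602 CPM (2.81-fold, FDR = 1.18e-10). Klf4, a Krüppel-like factor, went from 1.55 and 1.28 to 10.9 and 22.8 CPM (11.7-fold, log2 3.54, SE 0.651, FDR = 0.000253, and log2 2.93 without KD_in_Dep 2), and its depolarized replicates differed by about as much as their lower value. Npas4, a factor made in neurons in response to calcium, was already at 105 and 99.2 CPM at rest and rose 3.12-fold to 303 and 326 CPM (FDR = 4.08e-11). The 2 that fell were Myc, from 91.9 and 98.1 to 61.6 and 53.1 CPM (log2 -0.70, FDR = 0.00225, and 0.0552 without KD_in_Rest 2), and Klf6, from 274 and 289.8 to 202 and 197 CPM (log2 -0.48, FDR = 0.00597, and 0.0907, 0.0557 and 0.072 without KD_in_Rest 2, KD_in_Dep 1 and KD_in_Dep 2). Jund, Klf2, Srf, Bhlhe40 and Csrnp1 did not pass.

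**Figure D2:**
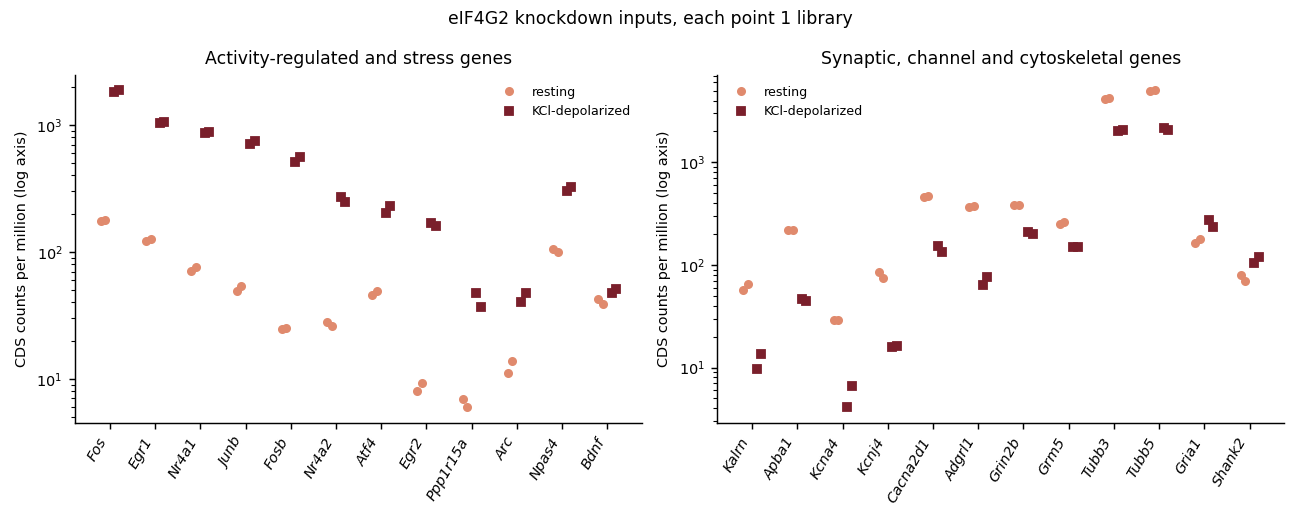
CPM of CDS counts (log axis) of 24 genes in the 4 eIF4G2 knockdown inputs; circles are the 2 resting and squares the 2 KCl-depolarized libraries. The resting and depolarized points of Fos, Egr1, Nr4a1, Junb and Fosb are 8.59-fold to 21.6-fold apart, those of Bdnf lie close together, and Kalrn, Apba1, Kcna4 and Kcnj4 lie lower after KCl.

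Effectors made in response to activity moved less evenly. Of 30 on the list, 27 were tested, 13 rose and 1 fell, beside 8.91% and 10.3% of all genes, with a median of 0.82, and 11 to 13 rose without any 1 knockdown input. Arc, which acts in the removal of AMPA receptors from synapses, was at 11.03 and 13.7 CPM at rest and 40.1 and 47.4 CPM after KCl (3.55-fold, log2 SE 0.3, FDR = 6.53e-05). The secreted pentraxin Nptx1 rose more, from 23.1 and 22.5 to 136 and 137 CPM (6.04-fold, FDR = 1.72e-09), and its relative Nptx2 less, from 57.6 and 63.2 to 108 and 102 CPM (1.76-fold, FDR = 0.00164). Sik1, a kinase that restrains CREB coactivators, went from 65.5 and 72.5 to 295 and 343 CPM (4.65-fold, FDR = 1.07e-13). Plk2, a kinase of synaptic scaling, went from 321 and 295 to 630.1 and 588 CPM (2.00-fold, FDR = 3.74e-09).

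Some known activity genes did not pass or went the other way. Bdnf, the neurotrophin, was at 42.4 and 39.03 CPM at rest and 47.6 and 51.4 CPM after KCl (log2 0.30, SE 0.21, FDR = 0.368). The activin subunit Inhba fell from 30.4 and 35.2 to 12.9 and 14.9 CPM (log2 -1.23, FDR = 0.00122). For Homer1, a postsynaptic scaffold gene with short and long forms, the outcome turned on the transcript. The transcript that is longest with its UTRs has a coding length of only 561 bases. It was at 25.6 and 18.4 CPM at rest and 13.98 and 18.4 CPM after KCl, overlapping at 18.4 CPM (log2 -0.44, FDR = 0.329). The transcript with the most counts gave -0.88 (FDR = 0.0154). Which protein form either value follows was not tested. MAP kinase feedback inhibitors, which shut off the same signal, split: of 17 tested, 4 rose and 3 fell, where 8.91% and 10.3% of all genes did (1 to 2 fell without any 1 knockdown input), and the median was 0.16, with 0.00245 without KD_in_Dep 2 and 0.31 without KD_in_Rest 2. The phosphatase Dusp1 was the one that rose most among them, from 107 and 122 to 424 and 472 CPM (3.95-fold, FDR = 1.47e-11).

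The promoters of the risen members of these 3 lists were searched for the 2 sequence elements named for CREB and SRF, the cAMP response element TGACGTCA and the CArG box, CC followed by 6 A or T and then GG. Each pattern equals its own reverse complement, so that a match holds for both strands, and matches to one pattern cannot overlap matches to the other. The windows run from 250 bases before to 50 bases after each RefSeq start (GRCm38.p6). Of 40 members of the immediate early, effector and feedback lists that rose, 30 were in the promoter table and 6 had an exact match, printed here in 30 bases 5′ to 3′ on the gene's strand, with each match in capitals.
Maff, cAMP response element, chr15:79347480-79347509, plus strand: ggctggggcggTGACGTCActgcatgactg
Plk2, cAMP response element, chr13:110394971-110395000, plus strand: agcgctcgccgTGACGTCAcgaggccccgc
Btg2, cAMP response element, chr1:134079303-134079332, minus strand: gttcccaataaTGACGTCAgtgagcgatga
Dusp1, cAMP response element, chr17:26508597-26508626, minus strand: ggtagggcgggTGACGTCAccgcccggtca
Egr2, CArG box, chr10:67537484-67537513, plus strand: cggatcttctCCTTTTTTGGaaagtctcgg
Egr2, CArG box, chr10:67537787-67537816, plus strand: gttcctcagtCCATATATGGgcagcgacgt
Dusp5, CArG box (2 adjoining matches), chr19:53529053-53529082, plus strand: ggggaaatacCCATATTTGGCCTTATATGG
Over all 32851 windows of the table, 1.79% held the cAMP response element and 1.63% the CArG box. The share among risen genes was not set against it, because under 80% of the members were in the table, and a match is a run of letters, not a bound site. Of the genes shown that were not described above, Btg2, an antiproliferative gene, went from 28.6 and 27.8 to 85.4 and 79.04 CPM (2.96-fold, FDR = 3.12e-06), Maff, a small Maf factor, from 9.63 and 5.89 to 34.4 and 22.8 CPM (3.79-fold, FDR = 0.00158, and 0.0613 without KD_in_Rest 2 or 0.098 without KD_in_Dep 1), and Dusp5, a phosphatase of ERK, from 11.3 and 11.3 to 24.1 and 36.01 CPM (2.65-fold, FDR = 0.00326, and 0.101 without KD_in_Dep 2).

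Genes of the integrated stress response, which phosphorylation of eIF2α sets off and in which ATF4 is made through upstream open reading frames, moved upward as well. Of 18 tested, 11 rose, none fell (edgeR's quasi-likelihood test; 1 was lower at an unadjusted p under 0.05, and 0 fell by DESeq2 or the likelihood ratio test). Over all genes 8.91% rose and 10.3% fell. The median of the list was 0.99, and 7 to 9 rose without any 1 knockdown input. Atf4 was at 45.8 and 48.9 CPM at rest and 204 and 228 CPM after KCl (4.60-fold, FDR = 1.04e-11). Ppp1r15a, the phosphatase subunit that reverses the eIF2α mark, went from 6.99 and 6.01 to 47.4 and 36.9 CPM (6.60-fold, FDR = 1.31e-07). Both genes lay several times higher in each depolarized library than in either resting one. The mTORC1 inhibitors Sesn2 and Ddit4 rose 3.31-fold, from 40.2 and 44.1 to 136 and 140.5 CPM, and 1.75-fold, from 162 and 161 to 269.5 and 289 CPM (FDR = 5.1e-09 and 4.35e-06). Asns, an ATF4 target that makes asparagine, was at 459 and 459 and then 412 and 387 CPM (log2 -0.18, FDR = 0.152, and 0.033 with the 4 knockdown inputs alone). Ddit3, which encodes CHOP, did not pass (log2 1.52, SE 0.598, FDR = 0.0785). In the study's blots, ATF4 and CHOP protein did not change significantly after KCl, while phosphorylated eIF2α did. The study held the response to be distinct from a classical stress response. Chaperones went both ways, beside those same shares of all genes: of 19 tested, 6 rose, among them the endoplasmic reticulum chaperone Hspa5, from 1140 and 1111 to 2235 and 2152 CPM (1.97-fold, FDR = 3.42e-09), and 3 fell, among them the cytosolic Hspa8, from 3758 and 3621 to 2403 and 2359 CPM (log2 -0.61, FDR = 2.19e-07), and Hsp90ab1, from 2973 and 3093 to 2137 and 2025 CPM (log2 -0.53, FDR = 4.02e-06). Without any 1 knockdown input 2 to 3 chaperones rose and 2 to 3 fell, and the median of 0.17 lay between 0.10 and 0.19, or at 0.32 with a trend over CDS length removed.

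In each of 5 lists of synaptic and ion channel genes more members fell than rose, where 10.3% of all genes fell and 8.91% rose. Over all 12223 genes the log2 fold change declined with log2 CDS length (r = -0.20, rho = -0.24, a description over genes that share libraries), and many of these genes are long, so that their counts are also given with that trend removed. With it removed, 997 of all 12223 genes rose and 993 fell. Among glutamate receptors and auxiliary subunits 7 of 23 tested fell and 1 rose, with a median of -0.36. Grin2b, an NMDA receptor subunit, was at 381 and 388 CPM at rest and 209 and 198 CPM after KCl (log2 -0.90, FDR = 1.57e-07). The metabotropic receptor Grm5 went from 248 and 263 to 149 and 151 CPM (log2 -0.75, FDR = 1.16e-05). The AMPA receptor subunits moved apart: Gria2 fell from 760.3 and 745 to 509.9 and 477 CPM (log2 -0.59, FDR = 4.75e-06) and Gria1 rose from 165 and 177 to 275 and 235 CPM (log2 0.60, FDR = 0.000238). The number of receptor genes that fell was 4 to 6 without any 1 knockdown input, and with the length trend removed it was 6, with a median of -0.25.

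Of 24 postsynaptic scaffold and signalling genes tested, 9 fell and 1 rose, with a median of -0.32. Only 4 to 6 fell without any 1 knockdown input, and 5, with a median of -0.18, with the length trend removed. Kalrn, an exchange factor for small GTPases in spines, fell most on this list, from 56.99 and 65.00 to 9.58 and 13.6 CPM (a fall of 5.36-fold, log2 -2.42, FDR = 1.64e-08). Its counted CDS, chr16:33975516-34095880 on the minus strand, is 3888 bases long. Ppp1r9b, the spine protein spinophilin, went from 174 and 156 to 69.4 and 51.4 CPM (log2 -1.41, FDR = 4.85e-07) and the scaffold Dlgap3 from 36.03 and 33.3 to 13.7 and 13.2 CPM (log2 -1.34, FDR = 0.00026). Shank2 was the member that rose, from 79.3 and 68.97 to 103 and 119 CPM (log2 0.59, FDR = 0.00436), and its FDR was 0.103 without KD_in_Rest 2 and 0.0907 without KD_in_Dep 2. Dlg4, which encodes PSD95, was at 136 and 130.1 and then 118 and 120.3 CPM (FDR = 0.422), counted over a longest transcript with a coding length of 822 bases, and the bait carries PSD95 sequence too.

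The presynaptic list had 12 fallen and 2 risen genes of 24 tested, with a median of -0.33, and 9 to 11 fell without any 1 knockdown input and 11 with the length trend removed. Apba1, the Munc18 binding adaptor Mint1, was at 220.5 and 218 CPM at rest and 46.1 and 44.4 CPM after KCl (a fall of 4.78-fold, log2 -2.26, SE 0.146, FDR = 2.03e-11). The active zone proteins Pclo and Rims1 fell from 385 and 396 to 209 and 227 CPM (log2 -0.83) and from 137 and 122 to 73.00 and 64.99 CPM (log2 -0.88). Adgrl1, a presynaptic adhesion receptor of the latrophilin family that was on no list, went from 366 and 375 to 63.7 and 75.97 CPM (a fall of 5.30-fold, FDR = 1.07e-13) and had the smallest p of all fallen genes.

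Potassium channels had the lowest median of the lists, -0.64: 11 of 26 tested fell and 1 rose, and 5 to 9 fell without any 1 knockdown input and 9 with the length trend removed. Kcna4, a voltage-gated channel of the A-type, was at 28.7 and 28.8 CPM at rest and 4.14 and 6.59 CPM after KCl (a fall of 5.51-fold, log2 -2.46, SE 0.328, FDR = 4e-06). The inward rectifiers Kcnj4 and Kcnj3 fell from 85.4 and 73.96 to 15.8 and 16.2 CPM (log2 -2.30, FDR = 1.89e-08) and from 108 and 101 to 45.6 and 39.5 CPM (log2 -1.26, FDR = 6.02e-06). Of 21 sodium and calcium channel genes tested, 5 fell and 1 rose, with a median of -0.19, where 10.3% of all genes fell in the same fit. The median was -0.23 to -0.14 without any 1 knockdown input. With the length trend removed 3 fell, where 993 of all 12223 genes did. The calcium channel subunit Cacna2d1 fell from 462 and 471 to 152 and 134 CPM (a fall of 3.21-fold, FDR = 7.25e-12), and the sodium channel Scn3a rose from 67.2 and 64.6 to 114 and 102 CPM (log2 0.73, FDR = 0.000266).

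The 6 largest falls by fold, among called genes with a mean log2 CPM of at least 3, were outside these lists. Mapk6, the atypical kinase ERK3, was at 50.3 and 51.3 CPM at rest and 3.11 and 4.39 CPM after KCl (a fall of 13.8-fold, log2 -3.79, SE 0.321, FDR = 2.5e-09). The next were B3galt1, Rhobtb2, Csnk1g2, Gpr6 and Dpp8, which fell between 5.90-fold and 7.64-fold to levels of 0.878 to 4.39 CPM. The fold of B3galt1 turned on 1 library (log2 -2.93, and -4.14 without KD_in_Dep 1). Their depolarized levels rest on few reads, and the depolarized libraries were the shallow ones. The 3 tubulin genes among those named by p, a choice that fixed their direction, were at far higher levels: Tubb5 went from 4999 and 5024 to 2136 and 2054 CPM (log2 -1.24, FDR = 1.07e-13), Tubb3, the neuronal form, from 4110 and 4255 to 2022 and 2051 CPM (log2 -1.02, FDR = 7.44e-12) and Tubb2a from 7022 and 7096 to 3644 and 3841 CPM (log2 -0.90, FDR = 5.33e-11). Tubulin genes are near-identical over long stretches, so that how reads were shared between them is uncertain. Among the risen genes outside the lists, Rsrp1, which encodes an arginine and serine rich protein, went from 66.5 and 62.96 to 382 and 353 CPM (5.76-fold, FDR = 1.02e-14).

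Of 42 translation initiation factors tested, 2 rose and 5 fell, where 8.91% and 10.3% of all genes did. Its median was -0.15, and -0.08 with the length trend removed. The poly(A)-binding protein gene Pabpc1 fell most clearly, from 226 and 204 to 102 and 108 CPM (log2 -1.02, FDR = 5.23e-06). Without any 1 knockdown input, at most 1 factor rose and 2 to 4 fell. Among 26 genes of mTORC1 and nutrient signalling 3 rose and 8 fell, beside the same shares of all genes (2 to 3 and 4 to 6 without any 1 input), with a median of -0.28. The mTOR inhibitor Deptor went from 1.09 and 1.66 to 12.7 and 13.2 CPM (9.21-fold, log2 SE 0.605, FDR = 0.000346) and Irs2, an adaptor of the insulin receptor, from 132 and 115 to 327 and 294 CPM (2.56-fold, FDR = 8.32e-10). Rptor, the scaffold of mTORC1, fell from 70.8 and 83.7 to 33.9 and 46.5 CPM (log2 -0.95, FDR = 0.000199).

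Genes of mitochondrial respiration rose, those encoded in the mitochondrion and many of those encoded in the nucleus. All 13 members of the mitochondrially encoded list rose, between 2.24-fold and 3.44-fold, and all 13 rose under each of the 12 other settings tried. mt-Co1, a subunit of cytochrome oxidase, was at 769.9 and 739.7 CPM at rest and 2005 and 1901 CPM after KCl (2.62-fold, FDR = 1.73e-12). Summed over the 13 genes the level was 2451 and 2275 CPM at rest and 6145 and 6008 CPM after KCl. Being encoded together in the mitochondrion, the 13 genes are not independent observations. Of 75 nuclear-encoded subunits of oxidative phosphorylation 52 rose and none fell (edgeR's quasi-likelihood test; 0 were lower at an unadjusted p under 0.05, by DESeq2 or by the likelihood ratio test), with a median of 0.51, where 8.91% of all genes rose and 10.3% fell. Cox6a1, a nuclear-encoded subunit of cytochrome oxidase, went from 159 and 173 to 305 and 346 CPM (log2 0.98, FDR = 9.08e-07). Fewer passed without a single input (29 without KD_in_Rest 1, 26 without KD_in_Rest 2, 31 without KD_in_Dep 1, 33 without KD_in_Dep 2). These are short genes, and with the length trend removed 16 rose, where 997 of all 12223 genes did, and the median was 0.27. For cytosolic ribosomal proteins the rise turned on the same step. Of 74 tested, 17 rose and 5 fell, again beside 8.91% and 10.3% of all genes. Their median was 0.23, and 0.22 to 0.29 without any 1 input. With the length trend removed 0 rose and 7 fell with a median of -0.04, where 997 of all 12223 genes rose and 993 fell. Ribosomal protein genes also have many processed copies in the genome that share their reads. Of 20 glycolytic enzymes 5 rose and 1 fell (2 to 3 and 0 to 1 without any 1 input), beside the same shares of all genes. Their median was 0.06, between 0.08 and 0.11 without any 1 input and 0.21 with the length trend removed.

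**Figure D3:**
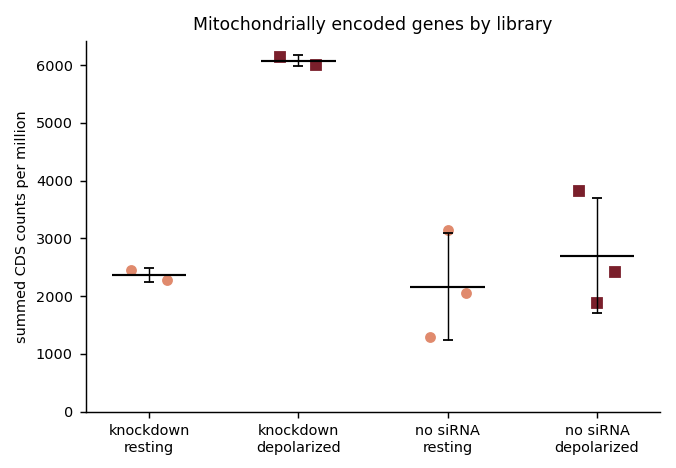
Summed CPM of CDS counts (y axis, from 0) of the 13 mitochondrially encoded genes in each of the 10 PSD95-TurboID inputs; points are libraries, horizontal lines group means and error bars SD. The 2 depolarized knockdown inputs, at 6145 and 6008 CPM, lie above all other inputs, and the ranges of the resting and depolarized inputs without siRNA overlap.

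Markers of cell types were read beside these groups. Pan-neuronal markers fell in 5 of 12 tested and rose in none (edgeR's quasi-likelihood test; 1 was higher at an unadjusted p under 0.05, 0 by the likelihood ratio test and 1 by DESeq2), where 10.3% of all genes fell. Their median was -0.16 (-0.28 to -0.08 without any 1 input). Their summed level was 11579 and 11843 CPM at rest and 9300 and 9185 CPM after KCl. Most of that fall was Tubb3 alone (log2 -1.02), the tubulin gene whose levels are given above. Of the 12, 7 did not pass, and 4 had a positive log2 fold change. Excitatory markers summed to 1595 and 1579 CPM at rest and 1602 and 1674 CPM after KCl, and 1 of 10 rose, Tbr1 (log2 0.29, FDR = 0.0229), a call lost without any 1 input. Where 8.91% of all genes rose, inhibitory markers rose in 4 of 11 (777.5 and 785.4 CPM, then 1018 and 1013 CPM) and astrocyte markers in 4 of 11 tested (1096 and 1110 CPM, then 1287 and 1276 CPM), among them Sox9, from 80.8 and 78.95 to 125 and 132 CPM (FDR = 0.00207, and 0.0586 without KD_in_Rest 2). Without any 1 input 1 to 3 inhibitory and 0 to 3 astrocyte markers rose. The inhibitory markers that rose were Dlx1, Dlx5, Sst and Npy, while Gad1, Gad2 and Slc32a1 did not pass (FDR = 0.788, 0.328 and 0.66). With the length trend removed 2 inhibitory markers rose, and 4 astrocyte markers rose and 1 fell. In edgeR's quasi-likelihood test and DESeq2 0 astrocyte markers fell, 2 were lower at an unadjusted p under 0.05, and the likelihood ratio test called 1 lower. The 2 lower ones were the glutamate transporter gene Slc1a2, at 105 and 104 CPM at rest and 85.4 and 71.6 CPM after KCl (FDR = 0.109, and 0.0171 with the 4 knockdown inputs alone), and Atp1b2, at 194 and 182 and then 134 and 138 CPM (FDR = 0.0515). Atp1b2 passed, lower, under 6 other settings: the likelihood ratio test (FDR = 0.0419), no filter (0.0031), the transcript with the highest count (0.0451), the 4 inputs alone (0.000577), the replicate block (0.0177) and the length trend removed (0.0347). Gfap, the defining marker of reactive astrocytes, was at 16.8 and 17.5 and then 17.6 and 23.3 CPM and did not pass (FDR = 0.665). Oligodendrocyte markers summed to 227.8 to 258.6 CPM and microglial markers to 26.4 to 32.9 CPM over the 4 libraries, with 0 calls in either list (edgeR's test; 1 oligodendrocyte and 0 microglial markers at an unadjusted p under 0.05, and 0 in both by DESeq2 and the likelihood ratio test). Mog was at 0 in all 4. Endothelial and fibroblast markers summed to 243 and 247 CPM at rest and 381 and 379.8 CPM after KCl, with a median of 0.53 over the 6 of 12 that were tested, and of 0.18 to 0.45 without any 1 input, the lowest without KD_in_Dep 2. The collagen gene Col1a1 was the 1 called, from 137 and 146 to 245 and 248 CPM (log2 0.81, SE 0.135, FDR = 7.33e-05), and the endothelial markers Cdh5 and Tek were at 0. What part these cells had in the responses above was not tested.

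The response with knockdown was set beside the response of the inputs without siRNA. The fold changes of the 2 share no library, but the response without siRNA was fitted in 10 inputs that include the 4 knockdown inputs, so that its calls use a spread estimated over these too. Without siRNA, 1698 of 12886 genes passed (13.2%; 792 or 6.15% upward, 906 or 7.03% downward), and 1130 without REST_PSD95_in 3. Of the 1089 genes that rose with knockdown, 409 (37.6%) also rose there and 7 fell, and of the 1264 that fell, 542 (42.9%) also fell and none rose. Taken from the other side, the 409 were 52.2% of the 783 tested genes that rose without siRNA, and the 542 were 60.2% of the 901 that fell. Across 8029 genes of sufficient level the fold changes of both experiments correlated (r = 0.703, rho = 0.650), and 74.4% had the same sign; genes are not independent replicates. By list, immediate early factors had 23 risen and 0 fallen of 31 tested without siRNA (median 1.44), integrated stress response genes 11 and 0 of 19 (0.86), oxidative phosphorylation subunits 50 and 0 of 75 (0.55), and potassium channels 0 and 7 of 26 (-0.29). MAP kinase feedback inhibitors had 5 and 4 of 17 (0.15). Cytosolic ribosomal proteins had 0 risen and 6 fallen of 76 (0.00, where 17 rose and 5 fell with knockdown), mTORC1 and nutrient signalling genes 1 and 1 of 26 (-0.03), glutamate receptor genes 1 and 2 of 23 (-0.18), and astrocyte markers 0 and 0 of 11 with a median of -0.31 beside 0.35 with knockdown. Oligodendrocyte markers had 0 and 2 of 10 (-0.97, beside 0.08 with knockdown) and endothelial and fibroblast markers 0 and 1 of 8 (-0.76, beside 0.53). In the test of the difference no gene of the last 7 lists, from MAP kinase feedback inhibitors on, passed. In these, 2, 7, 3, 0, 3, 3 and 1 had an unadjusted p under 0.05, in the order given. Among immediate early factors 1 passed, Nr4a2, and 6 of 31 had an unadjusted p under 0.05. In the stress response, oxidative phosphorylation and potassium channel lists 0 passed, and 1, 2 and 1 had an unadjusted p under 0.05. The mitochondrially encoded genes had 0 calls of 13 without siRNA (1 at an unadjusted p under 0.05), with a median of 0.30; their summed levels there were 1296, 3144 and 2053 CPM at rest and 3812, 1882 and 2410 CPM after KCl. In the test of the difference itself none of the 13 passed, and 5 of 13 had an unadjusted p under 0.05, where 5.49% of all genes did. The 13 are not independent of each other.

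**Figure D4:**
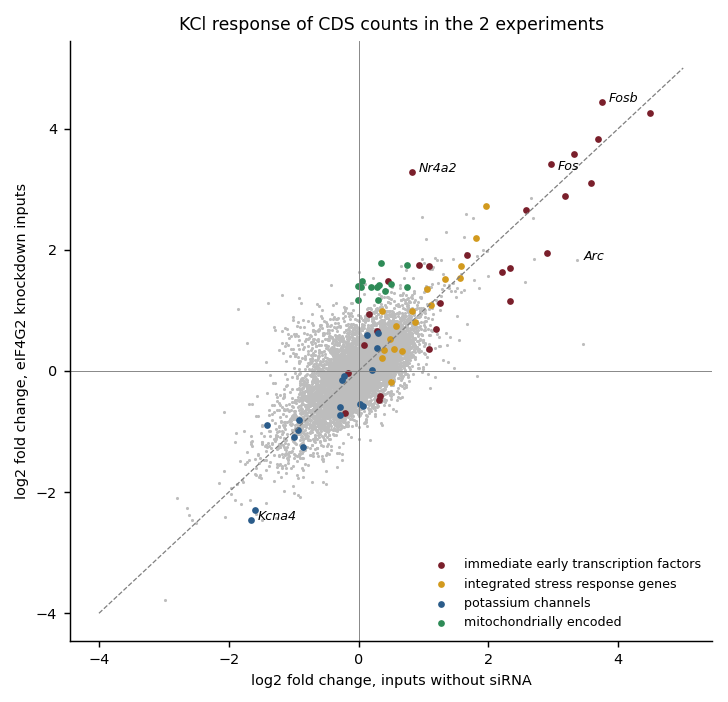
Log2 fold change of CDS counts with KCl in eIF4G2 knockdown inputs (y axis) against inputs without siRNA (x axis) for 8029 genes; each point is 1 gene, coloured points are members of 4 lists, and the dashed line marks equal change. Nr4a2 lies above the line (3.28 against 0.82), Arc below it (1.83 against 3.36), and the mitochondrially encoded genes lie above it as a group.

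Tested gene by gene, the response with knockdown differed from that without siRNA for 1 of 12886 genes (0.00776%), Nr4a2, a nuclear receptor of neurons (CDS at chr2:57108156-57112439, minus strand). With knockdown it was at 28.1 and 26.2 CPM at rest and 271 and 249 CPM after KCl. Without siRNA it was at 102.6, 203 and 141 CPM at rest and at 223, 300.4 and 264 CPM after KCl. The resting levels thus did not overlap between the experiments, while the depolarized ones did. The log2 fold change was 3.28 with knockdown, in the fit of the 8 knockdown libraries, and 0.82 without siRNA, in the fit of the 10 inputs. The difference, tested within the fit of the 10 inputs, was 2.44 (SE 0.323, FDR = 0.0126). The call was lost, with no gene passing, without any 1 of the 4 knockdown inputs and without DEP_PSD95_in 2 or 3. DESeq2 passed 15 genes and the likelihood ratio test 6. Arc, with 11.03 and 13.7 CPM at rest in the knockdown against 13.4, 11.6 and 17.2 CPM without siRNA, reached 40.1 and 47.4 CPM after KCl in the knockdown against 114, 175 and 139.5 CPM, so that its groups overlapped at rest and not after KCl; its difference of -1.55 (SE 0.333) did not pass (FDR = 0.57). Nr4a3, a relative of Nr4a2, had a difference of 1.02 (FDR = 0.57). Knockdown and experiment cannot be told apart in these differences.

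Reads placed in 5′ UTRs were then compared, since upstream open reading frames are read there. The files count each read at its 5′ end with no offset, so that a ribosome standing at the start codon is counted in the 5′ UTR; how much of the share this makes up was not tested. The 5′ UTR share, 5′ UTR counts in percent of 5′ UTR plus CDS counts, was 15.5% in each resting knockdown input and 20.5% and 21.4% in the depolarized ones, so that the groups were far apart beside the spread within them. The means were 15.5 ± 0.0182% and 21.0 ± 0.615% (SD, n = 2 each), a difference of 5.48 percentage points, and the exact permutation test gave p = 0.333, the smallest value that 2 against 2 allow. The Wilson 95% intervals of single libraries, which cover counting error only, were 20.5 to 20.6% and 21.4 to 21.5% for the depolarized inputs. The share in the median gene moved from 14.3% to 18.0%. Of 10520 genes with at least 10 CDS counts in every knockdown input, 4649 had a higher share in both depolarized libraries than in both resting ones and 942 a lower one. The share of reads in 3′ UTRs was 2.07% and 1.97% at rest and 2.09% and 2.11% after KCl. Without siRNA the 5′ UTR share was 16.6, 22.5 and 20.6% at rest and 22.4, 27.6 and 23.8% after KCl, overlapping by the second resting library (difference 4.67 points, exact permutation p = 0.2, smallest possible 0.1). Within same-numbered pairs, which were handled together, the share was higher after KCl in each pair, by 5.04 and 5.93 points with knockdown (exact sign-flip permutation p = 0.5) and by 5.75, 5.08 and 3.17 points without siRNA (p = 0.25, exact), both the smallest p possible for that number of pairs. The depolarized library was the shallower one of each pair with knockdown and of pairs 1 and 2 without siRNA. In pair 3 without siRNA it was the deeper one (8795781 against 3845442 CDS counts). The part of depth in the share was not tested.

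By gene, 277 of 8142 5′ UTRs tested (3.4%) rose and none fell at an FDR under 0.05 with library sizes taken from the CDS counts, and 1465 (18.0%) were higher and 21 (0.258%) lower at an unadjusted p under 0.05. DESeq2 called 561 higher and 3 lower, and the likelihood ratio test 765 higher and 11 lower. The count fell to 29 without KD_in_Rest 1, 32 without KD_in_Rest 2, 39 without KD_in_Dep 1 and 37 without KD_in_Dep 2. The median log2 fold change over all 5′ UTRs tested was 0.50, beside 0.02 for the CDS. The smallest p values belonged to the immediate early genes Fosb, Nr4a2, Junb, Egr1 and Fos. The 5′ UTR of Nr4a2 had 7.14 and 7.42 CPM at rest and 155 and 182 CPM after KCl (log2 4.54, FDR = 1.07e-08). That of Fos had 87.9 and 89.1 CPM at rest and 513 and 481 CPM after KCl (log2 2.51, FDR = 1.97e-07). In both genes the CDS rose as well, by less than the 5′ UTR in Nr4a2 (log2 3.28) and by more in Fos (log2 3.41). Of the 5′ UTRs of immediate early factors 16 of 28 tested rose, of effectors 14 of 25 and of stress response genes 6 of 19, and without any 1 knockdown input these counts were 12 to 13, 3 to 6 and 4. Homer1, whose CDS did not pass, had 21.9 and 28.1 CPM in its 5′ UTR at rest and 67.8 and 58.8 CPM after KCl (log2 1.36, FDR = 0.00801), a call that was lost without any 1 knockdown input (FDR between 0.112 and 0.422).

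Set against the CDS of the same gene in the same library, the 5′ UTR rose in 1618 of 8882 genes (18.2%) and fell in 43 (0.484%), with a median shift of 0.52. The 1661 calls became 421 without KD_in_Rest 1, 400 without KD_in_Rest 2, 1213 without KD_in_Dep 1 and 685 without KD_in_Dep 2. Adgrl1, Gnb1, Kif1b and Thra were among those with the smallest p, and in each of these 4 the CDS fell while the log2 fold change of the 5′ UTR lay between 0.23 and 0.90. For Adgrl1 the CDS fell as given above and the 5′ UTR went from 151 and 160 to 163 and 196 CPM (relative shift 2.62, SE 0.185, FDR = 1.06e-06). Gnb1, a G protein subunit, had 734 and 825 and then 349 and 337 CPM in its CDS and 342 and 373 and then 578 and 600 CPM in its 5′ UTR (relative shift 1.90). Of the 1618 genes, 761 had a fallen CDS and 45 a risen one, where 1137 of all 8882 genes had a fallen CDS and 919 a risen one. Of the 43 in the other direction, 25 had a risen CDS and none a fallen one, and Fos was among them with a relative shift of -0.91 (FDR = 0.000657). Immediate early factors split: of 28 tested, 7 rose and 5 fell relative to the CDS, beside 18.2% and 0.484% of all genes. Fewer did in each direction when any 1 knockdown input was left out. The CDS counts enter the relative test itself, so that these counts follow in part from how the genes were chosen.

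**Figure D5:**
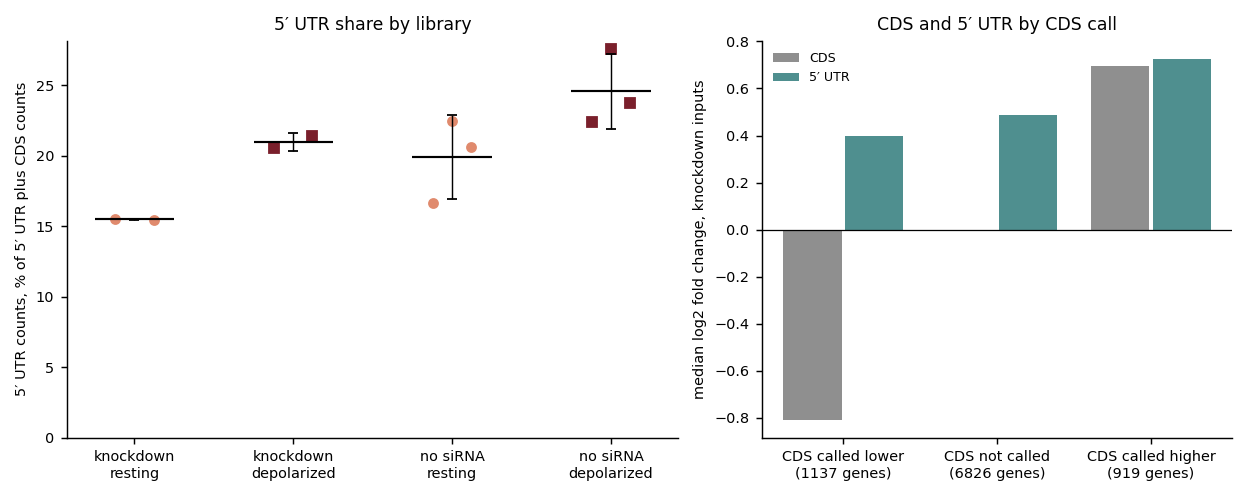
Left, 5′ UTR counts in percent of 5′ UTR plus CDS counts (y axis, from 0) in the 10 PSD95-TurboID inputs, with points for libraries, lines for means and bars for SD. Right, median log2 fold change with KCl of CDS and 5′ UTR counts in knockdown inputs for genes grouped by their CDS call; the 5′ UTR medians are 0.40, 0.49 and 0.73 where the CDS medians are -0.81, -0.00 and 0.70.

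The 5′ UTR counts were also grouped by the CDS call of the gene. In 1137 genes whose CDS fell the median change was -0.81 in the CDS and 0.40 in the 5′ UTR, in 6826 genes with no CDS call it was -0.00 and 0.49, and in 919 genes whose CDS rose it was 0.70 and 0.73. By gene, the 5′ UTR was called in 31 of 1101 tested genes with a fallen CDS, 114 of 6026 with no CDS call and 130 of 871 with a risen one. The median relative shift in these 3 groups was 1.19, 0.50 and 0.00. The groups were formed with the CDS counts that also enter the relative shift, so that the order of the shifts follows in part from the grouping. The 5′ UTR medians do not contain the CDS counts. They come from the same mRNAs and libraries, however, and so are not independent of the grouping. In the relative test 8 of 21 glutamate receptor genes, 10 of 20 postsynaptic genes, 11 of 22 presynaptic genes and 9 of 20 potassium channels rose, beside 18.2% of all genes. None of them fell (edgeR's quasi-likelihood test; 0, 1, 0 and 0 lower at an unadjusted p under 0.05). Without any 1 knockdown input 2 to 6, 5 to 8, 3 to 9 and 0 to 4 of the 4 lists rose, and at most 1 postsynaptic gene fell. These counts contain the fall of the CDS given above: the 5′ UTR counts of the 4 lists had median log2 fold changes of 0.51, 0.53, 0.50 and 0.58, beside 0.50 over all 5′ UTRs tested, and 1, 1, 0 and 0 of them rose. Grin2b, whose CDS fell, had 89.8 and 96.9 CPM in its 5′ UTR at rest and 99.7 and 97.0 CPM after KCl (relative shift 0.99, FDR = 0.00203, and 0.0518 without KD_in_Rest 1). Apba1 had 32.6 and 28.3 and then 48.7 and 40.8 CPM there (relative shift 2.85, FDR = 7.68e-06). Of 66 oxidative phosphorylation subunits 4 rose and 5 fell (1 to 2 and 0 to 7 without any 1 input), beside 18.2% and 0.484% of all genes, with a median relative shift of -0.16 beside 0.52 over all genes. The relative shift of these subunits contains the rise of their CDS, whose median was 0.51. Their 5′ UTR counts had a median log2 fold change of 0.40, beside 0.50 over all 5′ UTRs tested. Genes whose 5′ UTRs the study took for reporters, which it chose on dendritic responses in this series and which are therefore no independent evidence of a direction, were weakly read. Summed, those chosen for a rising CDS were at 84.9 and 78.6 CPM at rest and 68.1 and 88.3 CPM after KCl, and those chosen for a falling one at 48.1 and 51.95 CPM and then 41.2 and 49.6 CPM. Of 8 tested of the first list and 7 of the second, 0 passed in the CDS (edgeR's quasi-likelihood test; 1 lower in each list at an unadjusted p under 0.05, 1 lower in each by the likelihood ratio test and 0 by DESeq2). Over all genes tested in the CDS 8.91% rose and 10.3% fell, and lists this short and weakly read leave little room for calls. In the relative test 1 of 9 and 1 of 7 rose, and 0 in either list without any 1 knockdown input.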

How the data were processed

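Ribosome footprints of primary mouse cortical neurons were sequenced by the authors. They trimmed adapters and unique molecular identifiers, aligned reads to mm10 with Rsubread and counted them with plastid on UCSC transcripts. Per the file headers, ribosomal reads and duplicates had been removed and reads of 25 to 100 bases were counted at their 5′ ends. The deposited values are raw counts per region of each transcript. Here the longest transcript of each gene, with its UTRs included in the length, was used. Of 67238 coding transcripts 66750 (99.3%) took a symbol from GENCODE M21, giving 22443 genes. The CDS response was tested with edgeR 4.0.16 in R 4.3.3 (quasi-likelihood, robust, TMM factors, filterByExpr, Benjamini-Hochberg FDR of 0.05) in the 8 knockdown libraries, pulldowns included, so that 4 groups shared the estimate of the spread. The response without siRNA, the difference of the responses and the Eif4g2 check were fitted in 10 PSD95-TurboID inputs. The 5′ UTR was tested in the 8 knockdown libraries with library sizes of the CDS counts, and relative to the CDS in the 4 knockdown inputs with library as a block. A standard error is the absolute log2 fold change over the square root of F. The alternatives were DESeq2 1.42.0, the likelihood ratio test that the methods name, RLE size factors, no filter, the transcript with the highest count, other sets of libraries, a replicate block, removal of the CDS length trend and leaving out each library. The scripts were tested on simulated data.

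The members and lists were chosen with earlier results of these data known. Genes were named by rank, as examples of 25 lists, or as genes of the study. By rank, these were the 8 with the smallest p and the 6 with the largest fold change in each direction among called genes with a mean log2 CPM of at least 3 and both same-numbered pairs in that direction, and 5 by p in each direction of the difference and 5′ UTR tests, or 1 where none passed. Predicted, ribosomal protein and histone genes were not named by rank. The methods state that resting and activated neurons of a replicate were handled together, so that a shared number is a pair by handling. The deviations of same-numbered knockdown libraries from their group means correlated between -0.0171 and 0.0562 over 7734 genes, and those of KD_in_Dep and KD_in_Rest by 0.00354. Replicates of the knockdown inputs differed beyond sampling noise (chi-square per gene of 2.81 at rest and 3.07 after KCl, where sampling alone gives about 1). A replicate pooled several culture dishes. Whether resting neurons were silenced too is not given in the sources used here. Sequences are from RefSeq (GRCm38.p6, the assembly of mm10). Some results that the rule would name are not reported here.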

Additional observations from a re-analysis of the deposited data

Results flagged for a closer look

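The response of Nr4a2 to KCl differed between the eIF4G2 knockdown inputs and the inputs without siRNA, by the test of the difference itself (2.44 on the log2 scale, SE 0.323, FDR = 0.0126 in edgeR's quasi-likelihood test). It was the 1 gene of 12886 to do so, and no gene passed without any 1 of the 4 knockdown inputs or without DEP_PSD95_in 2 or 3. Its levels at rest were 28.1 and 26.2 CPM with knockdown and 102.6 to 203 CPM without siRNA.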

How the results depend on the processing

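The CDS count of 2353 lay between 1990 and 2768 under the likelihood ratio test, DESeq2, RLE size factors, no filter, the transcript with the highest count and removal of the length trend. It was 3663 with the 4 inputs alone and 1178 to 1356 without any 1 input. With the replicate block, which pairs libraries of the same number, it was 2267, the 5′ UTR count was 236 and the difference count was 1, and the block changed the call of 1 named gene, Atp1b2. The 5′ UTR count of 277 became 776 with the likelihood ratio test, 564 with DESeq2, 2130 with the 4 inputs alone and 29 to 39 without any 1 input, and was 236 to 396 otherwise. The count of differing responses, 1, became 6 with the likelihood ratio test, 15 with DESeq2, 7 with no filter and 0 to 3 without any 1 library. The relative 5′ UTR count of 1661 was 1611 to 2271 under the likelihood ratio test, no filter and the transcript with the highest count, and 400 to 1213 without any 1 knockdown input. The count without siRNA of 1698 was 1679 to 2053 under these, RLE size factors and DESeq2, and 1130 to 2156 without any 1 of the 10 inputs, where 1130 was the count without REST_PSD95_in 3. DESeq2 in the response without siRNA, and leaving out inputs in it and in the relative test, were chosen after seeing the data. The lower Eif4g2 level, whose alternatives were chosen after seeing the data, passed under each of them (-1.01 to -0.87). The difference in 5′ UTR share was 3.67 points for the median gene and 5.05 to 5.92 points without any 1 input, and the test within pairs was chosen after seeing the data. Of 25 lists, 5 medians changed sign under some setting: that of ribosomal proteins, given above, and 4 that lay between -0.05 and 0.11. Of 80 named genes tested in the CDS, 71 passed, 0 reversed, 8 lost their call without some 1 library and 5 gained one under some setting (Eif4g2, Asns, Homer1, Slc1a2 and Atp1b2). Where a group keeps 1 library, that library is assumed to vary like the other groups. The depolarized inputs, with 3857127 and 2292934 CDS counts, limit the precision of weakly read genes.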
